A study of Mus musculus with 4 samples.

Results

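Collagen culture (COL1) was compared with Matrigel culture (MATR) in mouse mammary organoids, using single-cell RNA counts from the droplet channels on which the cells of each culture were run. A barcode entered with 1000 or more unique molecule counts (UMIs, counts of individual captured RNA molecules), 500 or more genes and no more than 15% of its UMIs from mitochondria. Each antibody tag was divided by a fixed background count for its pool. A barcode of the COL1 and STIFF pool was COL1, and one of the MATR and SOFT pool was MATR, where its first tag so scaled was at least 2 times the other, and barcodes with both at or above 4 times background were dropped. This gave 1780 COL1 and 2958 MATR cells, 4738 of the 17513 barcodes that passed the cell filter.

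The organoids came from mammary glands of virgin mice, 8 to 9 weeks old, with no genetic change or drug named, and were grown in a collagen matrix (COL1), in Matrigel (MATR), or in matrices labelled STIFF and SOFT. Dissociated cells carried TotalSeq-A antibody tags, which bind the cell surface and mark the culture of origin. COL1 and STIFF cells ran on 1 Chromium channel, and MATR and SOFT cells on the other. The labels give chip reagents of an earlier and library reagents of a later Chromium chemistry, so the chemistry of each channel is not settled. With a single culture for each condition, no biological replicate exists, no p-value is given, and every interval covers counting error only. The matrix and the channel cannot be told apart in COL1 over MATR, and the same channels' STIFF over SOFT values, from cultures in other matrices, are therefore given beside it. Which tag belongs to which culture was taken from the names of the deposited matrices.

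Matrigel is a basement membrane extract, rich in laminin and collagen IV, and fibrillar collagen I is the main protein of the stroma around mammary ducts. The mammary epithelium has a basal, myoepithelial layer that contracts and touches the basement membrane, and an inner luminal layer made of hormone receptor-positive (HR-positive) sensor cells and hormone receptor-negative (HR-negative) secretory precursors. Fibroblasts make and remodel collagen, and macrophages clear debris and release chemokines. Collagen I is bound by alpha1beta1, alpha2beta1 and related integrins and by the discoidin domain receptors, and laminin by alpha6-containing integrins and dystroglycan.

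The 2 channels had like totals, with 133608252 UMIs in 10615 barcodes of the COL1 and STIFF pool and 131036333 UMIs in 8767 barcodes of the MATR and SOFT pool, and medians of 10087.5 and 12626 UMIs per kept barcode. COL1 cells were shallower than MATR cells, at a median of 9935 against 13267.5 UMIs and 2925 against 3454 genes per cell, and their median mitochondrial shares were 3.43% and 3.85%. STIFF (5381 cells) and SOFT (4173 cells) had medians of 11920 and 12067 UMIs. The first tag reached 4 times its background in 83.8% of COL1 and 83.1% of MATR cells. The tag rule left 1987 barcodes of the COL1 and STIFF pool and 423 of the other pool without a call, so the tagged cells are not all cells of each culture. The pools shared 19 kept barcodes, and 0 of them was COL1 in one pool and MATR in the other.

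Cells were grouped by clustering both pools together and naming clusters from marker lists. The basal-like cells carried 7598 CPM (UMIs of a gene per 1000000 UMIs) of 11 basal markers in COL1 and 8535 CPM in MATR, against 207.6 and 189.7 CPM in the HR-negative class. HR-positive luminal-like cells carried 9198 and 9573 CPM of HR-positive markers, HR-negative luminal-like cells 43370 and 40077 CPM of HR-negative markers, fibroblast-like cells 17358 and 21087 CPM of fibroblast markers, and macrophage-like cells 44055 and 42008 CPM of macrophage markers. The basal markers were also at 3335 and 2382 CPM in fibroblast-like cells, which share contractile genes with basal cells. In basal-like cells the HR-negative markers summed to more than the basal markers in COL1 and to less in MATR. Those sums are given below with that class. Mast cell markers were at 0 in both cultures, and lists for B cells, dendritic cells and adipocytes summed to under 2 CPM over all cells.

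COL1 held a larger share of stromal and basal-like cells, and a smaller share of luminal-like cells, than MATR. HR-positive luminal-like cells made up 30.3% of the COL1 cells (540 cells; exact 95% interval 28.2% to 32.5%) and 45.5% of MATR cells (1347 cells; 43.7% to 47.4%). Fibroblast-like cells made up 10.3% (183 cells; 8.91% to 11.8%) and 4.26% (126 cells; 3.56% to 5.05%). These intervals do not overlap, but they do not cover the difference between cultures of 1 condition.

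Basal-like cells were 13.4% of COL1 (238 cells) and 8.69% of MATR (257 cells), and macrophage-like cells were 8.15% (145 cells) and 5.17% (153 cells). HR-negative luminal-like cells were 16.9% (300 cells) and 23.8% (703 cells), and endothelial-like cells were 0.787% and 0.237%. With the alternative HTODemux tag calls the HR-negative shares were 10.4% and 12.4%, so the size of this difference depends on the tag rule. The STIFF and SOFT shares on the same channels were 15.8% and 9.23% for basal-like, 29.8% and 44.8% for HR-positive, 21.5% and 21.6% for HR-negative, 5.59% and 4.15% for fibroblast-like, and 5.48% and 6.18% for macrophage-like cells. The basal-like and HR-positive shares thus lay nearer to those of the other culture of the same channel than to each other, and the fibroblast-like and macrophage-like shares of COL1 were above the other 3 cultures. The leading genes of some clusters differed in level between the cultures (Saa1, Saa2 and Fcgbp for HR-negative, Cxcl2 for macrophage-like, Defb14, Krt4, Krt78 and Reg3b for HR-positive cells), and the shares of those classes are given as description only.

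**Figure D1:**
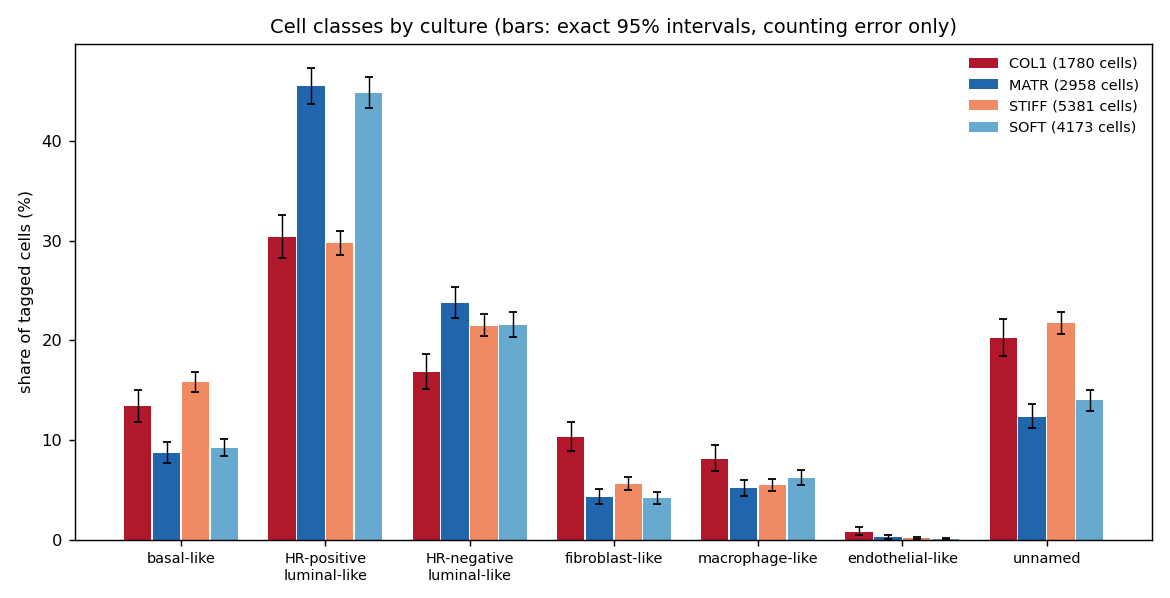
Share of tagged cells (%) in each cell class for COL1, MATR, STIFF and SOFT, with exact 95% intervals that cover counting error only. The HR-positive luminal-like bars stand at 30.3% in COL1 and 45.5% in MATR, and the fibroblast-like bars at 10.3% and 4.26%.

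Clusters whose marker lists crossed lineages were left unnamed and held 20.2% of COL1 cells (18.4% to 22.2%) and 12.3% of MATR cells (11.2% to 13.6%). Cluster 0, with a median of 1404 UMIs and markers of several lineages, held 6.80% of COL1 and 0.338% of MATR cells, with 3.96% of STIFF and 0.863% of SOFT. Cluster 11, led by Krt17 with markers of both basal and HR-negative cells, held 6.35% and 2.33%. Cluster 5, with markers of both luminal lineages and a median of 25219 UMIs, held 6.24% and 8.22%, and cluster 2, led by the cycling genes Top2a and Mki67, held 0.843% and 1.45%.

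Over all cells, COL1 had more RNA of stromal and inflammatory genes and less of a set of HR-positive epithelial genes than MATR. A gene was called higher or lower where its ratio of CPM was at least 1.5-fold with a 95% interval that excluded 1, among genes of at least 10 CPM in 1 culture and at least 30 UMIs over both. Of 8455 genes measured, 484 were higher in COL1 (5.72%) and 117 were lower (1.38%). Fewer cells of a type and less RNA per cell cannot be told apart in such sums. With each lineage given the same weight in both cultures, 124 genes were higher and 69 lower.

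Mmp13, the collagenase that cleaves fibrillar collagen, was at 75.3 CPM in COL1 and 6.26 CPM in MATR, a 12.03-fold ratio (10.7 to 13.6). It was at 17.04 CPM in STIFF and 27.9 CPM in SOFT, so COL1 was the highest and MATR the lowest of the 4 cultures. The UMIs came from 82 COL1 and 62 MATR cells, and 1 cell held 14.03% of those of COL1 and 42.1% of those of MATR. Tnc, which encodes the matrix glycoprotein tenascin C, was at 99.9 and 23.8 CPM (4.19-fold). STIFF at 102 CPM matched COL1, and SOFT was at 72.5 CPM, so here MATR alone was low.

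The chemokine genes for neutrophil and monocyte recruitment were the next group. Cxcl2 was at 394 and 65.0 CPM (6.07-fold, 5.83 to 6.32), Cxcl1 at 161 and 39.5 CPM (4.09-fold), Ccl2 at 312 and 82.0 CPM (3.81-fold) and Ccl3 at 91.3 and 22.2 CPM (4.10-fold). Pf4, a platelet factor also made by macrophages, was at 150 and 31.1 CPM (4.84-fold), but at 26.6 CPM in STIFF and 121 CPM in SOFT. STIFF and SOFT lay between COL1 and MATR for Cxcl2, Cxcl1, Ccl2 and Ccl3.

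Fabp4, a fatty acid-binding protein of adipose and endothelial cells, was at 93.9 and 17.03 CPM (5.51-fold). Cck, the cholecystokinin hormone gene, was at 162 and 35.6 CPM (4.55-fold). Beside these ratios, the summed macrophage markers were at 4527 and 2234 CPM and the summed fibroblast markers at 2505 and 1618 CPM over all cells. At equal lineage shares the ratios were 5.06-fold for Mmp13, 3.19-fold for Cxcl2, 2.86-fold for Cxcl1, 2.55-fold for Pf4, 2.15-fold for Ccl3, 2.08-fold for Cck, 2.04-fold for Fabp4, 1.97-fold for Ccl2 and 1.94-fold for Tnc. These 9 ratios stayed above 1.5-fold, and each was lower than over all cells.

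Among the genes lower in COL1 were keratins and secreted factors of HR-positive luminal cells. F3, which encodes tissue factor, the cell surface starter of clotting, was at 119.6 CPM in COL1 and 360.4 CPM in MATR, a 3.01-fold lower level (2.89 to 3.14). It was at 150.5 CPM in STIFF and 155 CPM in SOFT, so MATR stood apart from the other 3 cultures. MATR was likewise the highest for keratins of stratified epithelium. Krt78 was at 43.3 and 140 CPM (3.24-fold lower), with 47.4 in STIFF and 39.7 in SOFT, and Krt4 was at 88.2 and 232 CPM (2.63-fold lower), with 109 and 72.4.

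Krt79 was at 20.02 and 56.7 CPM (2.83-fold lower), and Il33, the alarmin interleukin 33, at 27.6 and 57.9 CPM (2.10-fold lower). Defb14, a beta-defensin, was at 17.3 and 51.5 CPM (2.97-fold lower), and Gpx3, a secreted glutathione peroxidase, at 185 and 378 CPM (2.04-fold lower). For Defb14 and Gpx3 the order of the channels turned in the other cultures, with 66.8 CPM in STIFF and 7.80 in SOFT, and 612 and 92.9. Ltf, lactoferrin, was at 186 and 373 CPM (2.01-fold lower), Mlph, the melanosome transport protein melanophilin, at 70.4 and 137 CPM (1.94-fold lower), and Ttc36 at 39.9 and 78.8 CPM (1.97-fold lower). At equal lineage shares these genes were 1.58-fold to 2.67-fold lower.

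**Figure D2:**
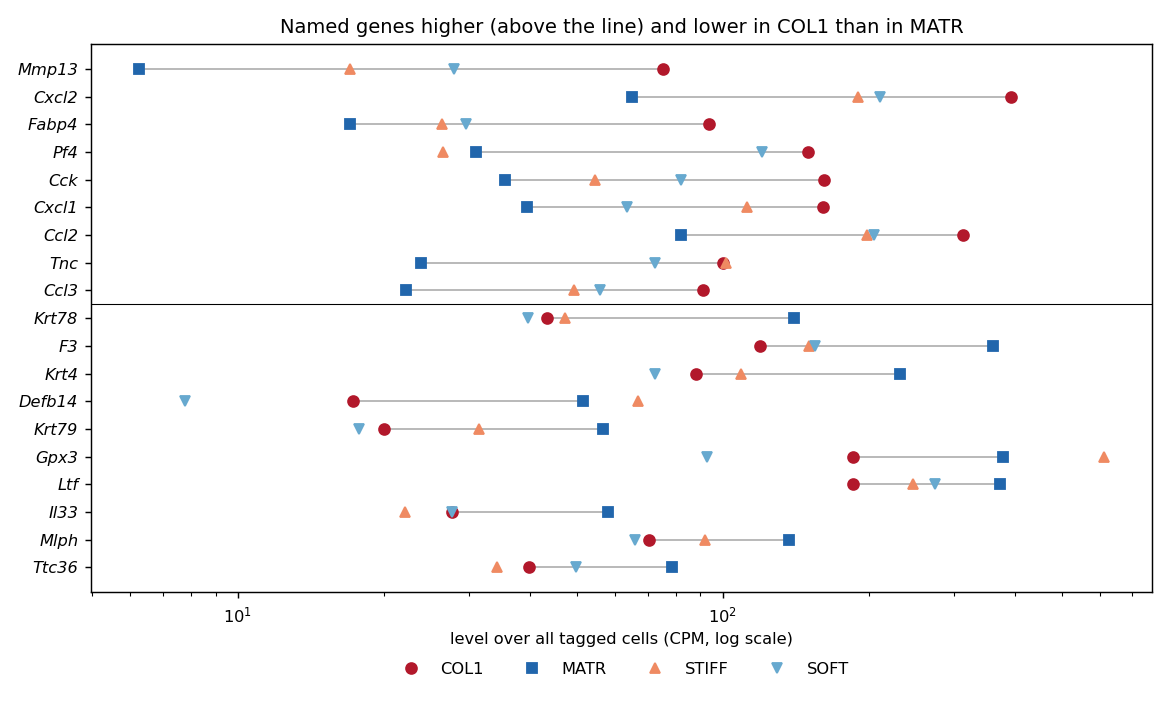
Levels in CPM (log axis) over all tagged cells of the genes named from both ends of the COL1 over MATR ratios, in the 4 cultures; lines join COL1 and MATR. COL1 was the highest and MATR the lowest culture for Mmp13 (75.3 and 6.26 CPM), and MATR was the highest for F3 (360.4 CPM).

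Most matrix genes were higher in COL1 over all cells, and the medians of the matrix lists were near 0 once each lineage had the same weight in both cultures. Interstitial matrix glycoprotein genes were higher for 12 of 15 measured, with a median log2 ratio (pseudocount 5 CPM) of 1.10, against 0.02 over all genes. Fibrillar collagens and their processing enzymes were higher for 15 of 17 (median 0.95), and matrix proteases and inhibitors for 17 of 18 (0.86). At equal lineage shares the medians were 0.09, 0.04 and 0.19, while Mmp13 (5.06-fold) and Tnc (1.94-fold) stayed above 1.5-fold. Col1a1, the main chain of collagen I, was at 542 and 277.5 CPM over all cells, Bgn (biglycan) at 626 and 241 and Postn (periostin) at 438 and 188. Chemokines and cytokines were higher for 15 and lower for 1 of 19, with a median of 1.39 over all cells and 0.57 at equal lineage shares, and in STIFF over SOFT the median was -0.14.

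**Figure D3:**
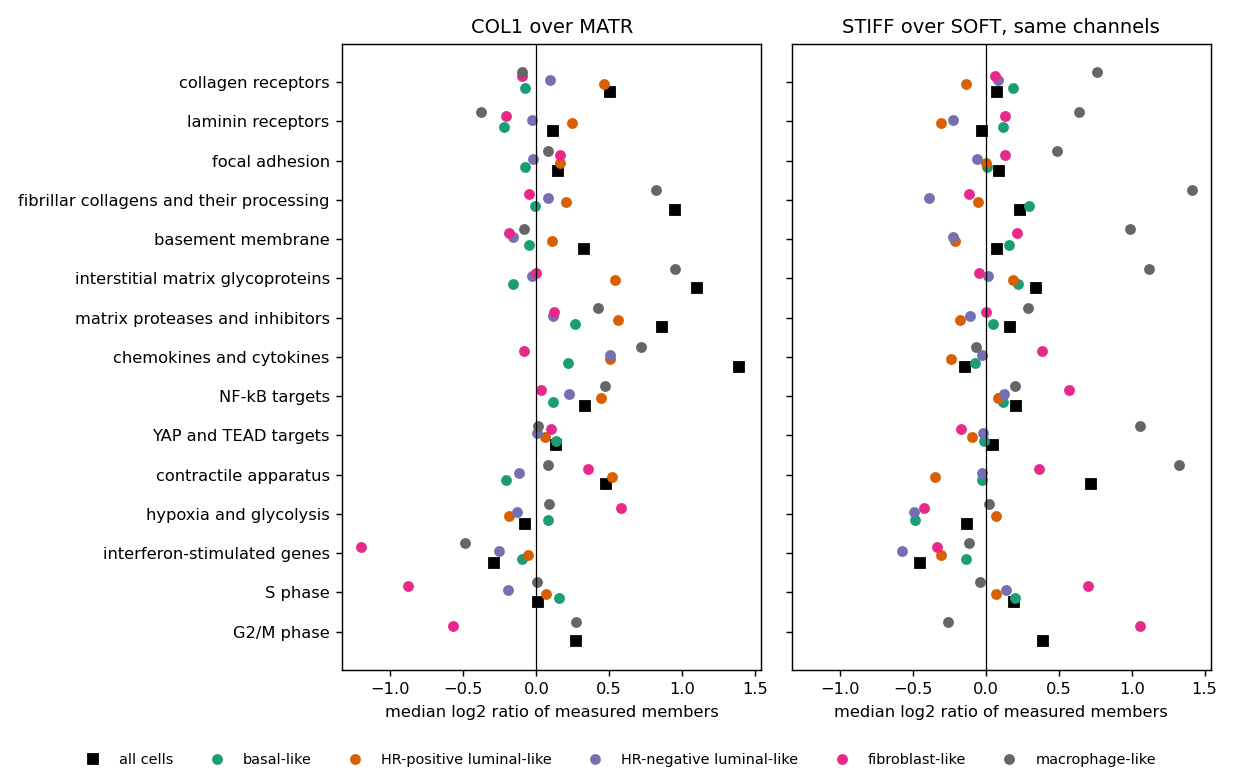
Median log2 ratio of the measured members of 15 gene lists, over all cells (squares) and within each class (circles), for COL1 over MATR and for STIFF over SOFT on the same channels. Matrix lists lie to the right over all cells (median 1.10 for interstitial glycoproteins), and the interferon-stimulated list lies furthest to the left in fibroblast-like cells (-1.20).

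Few genes moved the same way in most classes. Of 5972 genes measured in all 5 classes, 17 (0.285%) were at least 1.5-fold higher in COL1 in 4 or 5 classes, and 4 (0.067%) were at least 1.5-fold lower in 4. These counts use the ratio alone, without the interval. The 7 genes higher in all 5 included Atf3 and Klf4, stress-induced transcription factors, Cxcl1, Pim1, a kinase gene induced by cytokine signals, and the unnamed models Gm17056 and Gm10076. The 4 lower ones were F3, Ifit1 (an interferon-induced antiviral gene), Pdzk1ip1 and Mlph. The interval held 1 for Gm17056 in basal-like cells (0.929 to 2.81) and for Mlph in fibroblast-like cells (0.261 to 1.09).

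Some of these followed the channel in the other cultures too. Gm10076 had ratios of 1.98 to 2.10 in COL1 over MATR and 1.88 to 2.21 in STIFF over SOFT. Of the 17 genes, 7 were at least 1.5-fold higher in STIFF in 4 or more classes. Gm10076, Atf3 and Klf4 thus had ratios above 1 in every class in both pairs of cultures, which share their channels.

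Pim1 differed from that pattern in every class, and Cxcl1 in basal-like cells alone. Pim1 was at 252 and 115 CPM in macrophage-like, 64.0 and 35.8 in fibroblast-like, 51.6 and 32.1 in HR-negative, 32.2 and 13.5 in basal-like and 14.5 and 5.78 in HR-positive cells. Its COL1 over MATR ratios were 1.61 to 2.51, and its STIFF over SOFT ratios 0.427 to 0.948. Cxcl1 was at 720.2 and 168 CPM in macrophage-like cells (4.29-fold), 349.9 and 186 in fibroblast-like (1.88-fold), 103 and 42.4 in HR-negative (2.42-fold), 41.3 and 13.5 in basal-like (3.05-fold) and 32.5 and 13.3 in HR-positive cells (2.45-fold). Its STIFF over SOFT ratio was 0.876 in basal-like cells and 1.45 to 2.91 in the other classes. Cxcl1 was thus higher in COL1 in every class, with macrophage-like cells the highest in level.

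F3 was lower in COL1 in 4 of the 5 classes. It was at 241 and 683 CPM in HR-positive cells (2.83-fold lower), 30.3 and 86.3 in basal-like (2.85-fold lower), 28.2 and 80.7 in macrophage-like (2.86-fold lower) and 36.4 and 55.3 in fibroblast-like cells (1.52-fold lower). In HR-negative cells, at 102 and 126 CPM, the ratio was 1.24-fold and the gene was not called. Its STIFF over SOFT ratio was 0.951 in basal-like, 1.11 in HR-positive, 0.986 in HR-negative, 0.795 in fibroblast-like and 2.26 in macrophage-like cells. The HR-positive class had the highest F3 level in both cultures. In macrophage-like cells the summed pan-luminal markers were 2951 and 4113 CPM in COL1 and MATR, and 6832 and 1988 in STIFF and SOFT. F3, Mlph and Pdzk1ip1 ran the same way as that sum in both pairs, and Ifit1 did not in STIFF over SOFT (0.979). In that class Mlph was at 17.3 and 36.3 CPM, with 46.7 in STIFF and 9.80 in SOFT. Pdzk1ip1 was at 24.7 and 55.5 CPM, with 58.5 and 15.98. The part of luminal RNA in these macrophage-like ratios was not tested.

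The promoters of the genes at the ends of these comparisons are shown to place 2 stress-linked motifs on them: Cxcl1, 1 of the genes higher in all 5 classes, and F3, 1 of the 4 lower in 4 classes, both chosen after their values were seen, and Mmp13, the gene with the largest ratio over all cells. Each is the 160 bases before the RefSeq start on GRCm38.p6, plus strand, with capitals for matches to AP-1 (TGANTCA) or to the NF-kB motif kappa B on either strand. Cxcl1 (chr5:90891085-90891244) holds kappa B matches at 89 to 80 and 71 to 62 bases before the start. F3 (chr3:121723377-121723536) holds AP-1 matches at 146 to 140 and 135 to 129 bases before it, and Mmp13 (chr9:7272354-7272513) 1 at 35 to 29.
Cxcl1: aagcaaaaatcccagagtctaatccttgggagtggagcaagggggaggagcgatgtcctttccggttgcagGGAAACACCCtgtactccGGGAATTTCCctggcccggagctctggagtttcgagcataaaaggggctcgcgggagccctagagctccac
F3: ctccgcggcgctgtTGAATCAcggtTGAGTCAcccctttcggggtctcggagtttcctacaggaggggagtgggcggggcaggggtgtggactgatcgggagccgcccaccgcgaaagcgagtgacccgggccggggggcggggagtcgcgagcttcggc
Mmp13: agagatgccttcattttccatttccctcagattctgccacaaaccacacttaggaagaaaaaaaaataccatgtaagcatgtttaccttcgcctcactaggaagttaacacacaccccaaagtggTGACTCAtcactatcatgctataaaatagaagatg
Of the 16 genes looked up, 14 had a promoter entry. Of these, 2 held the AP-1 letters, 3 the kappa B letters (Cxcl1, Nfkbia and Ifit1) and 0 the CRE letters (TGACGTCA). Among 32851 RefSeq promoters, 6.75% held the AP-1, 4.11% the kappa B and 1.55% the CRE letters in their 250 bases before the start. A match is a description of the letters, and nothing on binding follows from it.

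**Figure D4:**
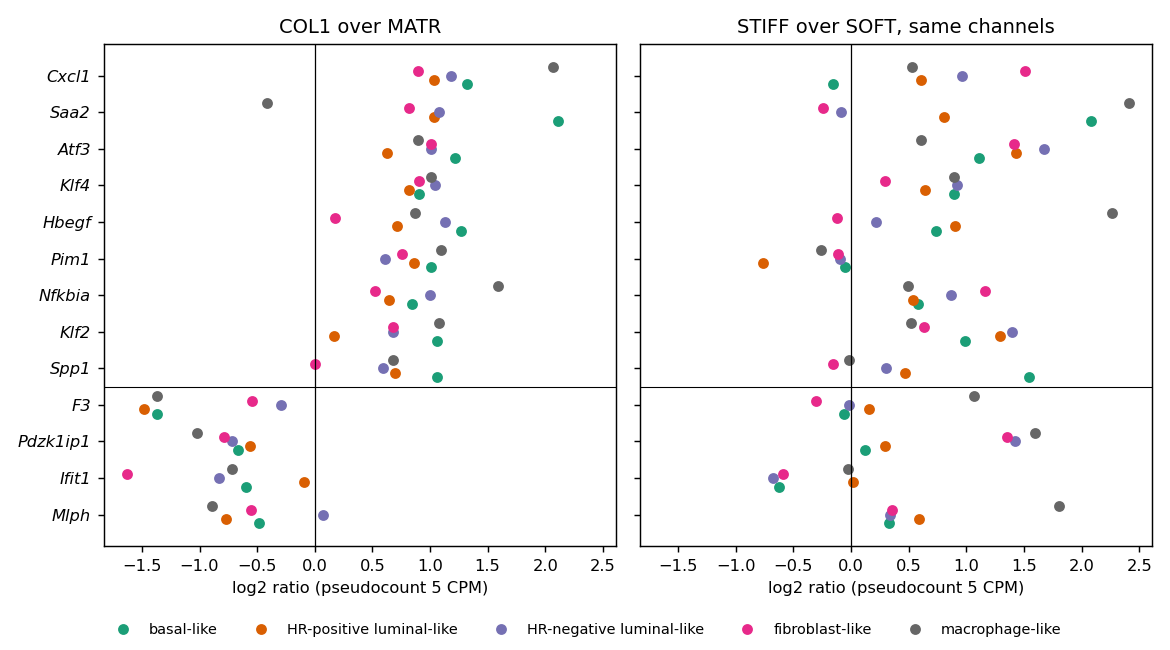
Log2 ratios (pseudocount 5 CPM) in each of the 5 classes for the named genes at least 1.5-fold higher (above the line) or lower (below it) in 4 or 5 classes, for COL1 over MATR and for STIFF over SOFT on the same channels. Atf3 lies to the right of 0 in every class in both panels, while Pim1 lies to the right in COL1 over MATR and to the left of 0 in STIFF over SOFT, where its ratios were 0.427 to 0.948.

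The AP-1 subunits and other immediate early genes, which are transcribed within minutes of a stimulus or of cell handling, had members higher in COL1 in every class. The median log2 ratio of measured AP-1 subunits was 0.64 in basal-like (4 of 7 higher), 0.38 in HR-positive (2 of 7), 0.34 in HR-negative (2 of 7), 0.36 in fibroblast-like (3 of 8) and 0.59 in macrophage-like cells (5 of 8), with 0 lower in any class. The share of all measured genes called higher was 3.39%, 4.08%, 1.99%, 3.5% and 4.85% in the same order. In STIFF over SOFT the AP-1 medians were 0.83, 0.25, 0.73, 0.33 and 0.73, of the same sign and a like size.

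Fos was at 4117 and 2632 CPM in basal-like, 5724.5 and 3812 in HR-negative and 2631 and 1752 in macrophage-like cells, and was called higher in those 3 classes. Its values were 3259 and 2279 CPM in HR-positive and 2151 and 1609 in fibroblast-like cells, which were not called. Jun, the partner of Fos in the AP-1 dimer, was higher in basal-like (1755 and 952 CPM), fibroblast-like (1657 and 1078) and macrophage-like cells (1315 and 868). Fosb was higher in basal-like (719.5 and 346 CPM) and HR-positive cells (548 and 267), and Jund was called in no class. Atf3 was 2.41-fold higher in basal-like, 1.55-fold in HR-positive, 2.03-fold in HR-negative, 2.09-fold in fibroblast-like and 1.87-fold in macrophage-like cells. Its STIFF over SOFT ratios were 2.24, 2.72, 3.26, 2.85 and 1.53.

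Of 14 other immediate early genes, 7 of 14 measured were higher in basal-like, 3 of 12 in HR-positive, 4 of 14 in HR-negative, 3 of 14 in fibroblast-like and 10 of 14 in macrophage-like cells, and 1 was lower, Egr3 in fibroblast-like cells. Klf4 was at 223 and 116 CPM in basal-like and 177 and 82.9 CPM in HR-negative cells. Klf2 was 2.16-fold higher in basal-like and 2.13-fold higher in macrophage-like cells.

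**Figure D5:**
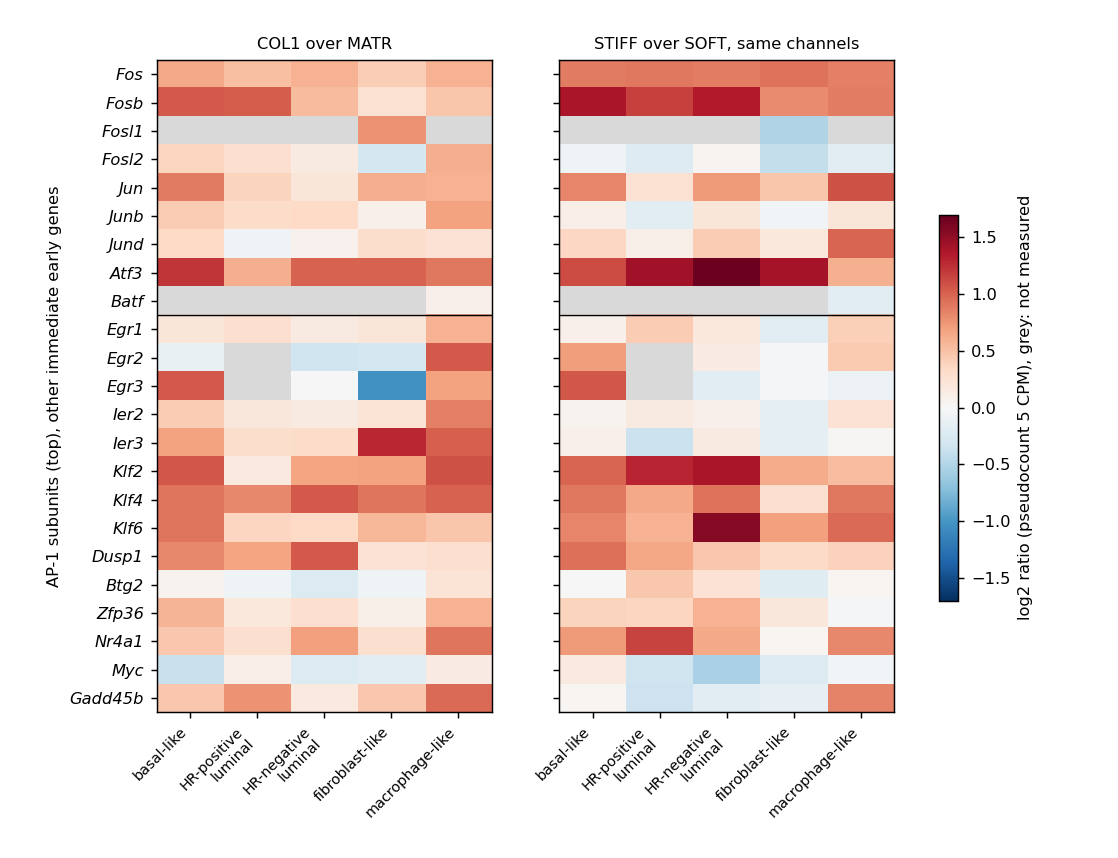
Log2 ratio (pseudocount 5 CPM) of AP-1 subunits (top) and other immediate early genes in each class, for COL1 over MATR and STIFF over SOFT on the same channels, with grey for genes not measured. Red, higher in COL1 or STIFF, prevails in both panels, with AP-1 medians of 0.34 to 0.64 and 0.25 to 0.83.

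Within the classes, the counts of called receptor and adhesion genes were small and were not tested against the shares over all genes. Over all cells, 4 of 5 measured collagen receptors were higher, with a median log2 ratio of 0.50, and 0.02 at equal lineage shares. Of 9 collagen receptors, 5 were measured in basal-like cells and 0 was called in either direction, with a median log2 ratio of -0.07. Ddr1, the epithelial discoidin receptor, was at 64.9 and 71.3 CPM in basal-like and 49.2 and 46.2 CPM in HR-positive cells and was called in no class. Itga2, the collagen-binding alpha2 integrin, was higher in HR-positive (17.6 and 6.9 CPM, with 11.1 in STIFF and 16.98 in SOFT) and HR-negative cells (16.7 and 10.2 CPM, with 11.4 and 9.7). In HR-positive cells the SOFT value equalled that of COL1 within 1 CPM.

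In fibroblast-like cells the common beta1 subunit Itgb1 was higher (887 and 586 CPM), while the collagen-binding Itga1 (139.8 and 243 CPM) and Ddr2 (32.6 and 59.0 CPM), the discoidin receptor for fibrillar collagen, were lower. In macrophage-like cells Lair1, an inhibitory collagen receptor, was lower (27.8 and 42.7 CPM), and Itga1 was higher at a low level (10.4 and 4.8 CPM). Of 6 laminin receptors, 1 was called in 1 class, Itga6 in fibroblast-like cells (13.8 and 22.7 CPM). In basal-like cells, where laminin receptors are most used, Itga6 was at 295 and 348 CPM, Itgb4 at 66.0 and 84.2, Dag1 at 199 and 221 and Bcam at 321 and 320.5, none called. Of 15 focal adhesion genes, 0 was called in any class, and the YAP and TEAD targets, read as genes that answer to matrix stiffness, had at most 1 called in each direction in a class.

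Basal-like cells of COL1 had more serum amyloid and osteopontin RNA and less of several luminal and keratin genes. The direction of Ltf and of the luminal keratin and hormone receptor lists turned without the cells of the highest scrublet scores. Of 8269 genes measured, 280 were higher (3.39%) and 175 lower (2.12%). Saa2, an acute phase apolipoprotein, was at 185 and 39.1 CPM (4.74-fold, 3.89 to 5.80), and Saa1 at 467 and 155 CPM (3.02-fold). A single cell held 39.9% of the COL1 Saa2 UMIs and 33.6% of those of Saa1. Spp1, the secreted matrix protein osteopontin, was at 4275 and 2043 CPM (2.09-fold), with 25.9% of the COL1 UMIs in 1 cell. All 3 genes are thus carried in part by single cells. Saa1 and Saa2 also lead the HR-negative class, whose marker sum in basal-like cells was 8485 CPM in COL1 and 7408 CPM in MATR.

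Adm (adrenomedullin, a vasodilator peptide induced by hypoxia) was at 92.4 and 26.2 CPM (3.53-fold, 2.75 to 4.57), with 10.5 in STIFF and 50.6 in SOFT. Ddit4, a stress-induced inhibitor of mTOR signalling, was at 158 and 74.0 CPM (2.14-fold), with 90.01 and 135. Both were higher in COL1 than in MATR and lower in STIFF than in SOFT, so the order of the channels turned between the pairs of cultures. Klk8, a secreted serine protease, was at 79.4 and 33.7 CPM (2.36-fold), the growth-factor-induced Egr3 at 59.8 and 26.5 (2.26-fold) and the chloride channel regulator Clca3a2 at 55.0 and 25.3 (2.18-fold).

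Ltf was at 38.5 and 158 CPM (4.11-fold lower), with 46.3% of the MATR UMIs in 1 cell. Its log2 ratio turned to 0.36 without the cells of the highest scrublet scores, so its direction depends on them. Gpx3 was at 38.1 and 99.8 CPM (2.62-fold lower) and Igfbp2, an insulin-like growth factor binding protein, at 57.0 and 144 CPM (2.52-fold lower). Ly6d, a surface protein of epithelial progenitors, was at 486 and 860 CPM (1.77-fold lower, 1.66 to 1.89), with 384 in STIFF and 696 in SOFT. Rflna (35.4 and 68.0 CPM), Steap4 (35.0 and 65.2), Prss23 (129 and 226) and Ism1 (30.7 and 55.9) were 1.75-fold to 1.92-fold lower.

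Among the keratins of the basal layer, Krt5 was at 482 and 588 CPM, Krt14 at 993 and 972, Krt17 at 396 and 297 and Krt15 at 78.2 and 57.4, and 0 was called. Of the luminal keratins, Krt19 was lower, at 740 and 1390 CPM, with 782 in STIFF and 917 in SOFT. The median log2 ratio of the luminal keratins was -0.28, and it was 0.32 without the cells of the highest scrublet scores. Squamous keratins and cornified envelope genes were lower for 5 of 6 measured, with a median log2 ratio of -0.82, against 0.01 over all genes and 0.11 in STIFF over SOFT. Over the alternatives it ranged from -1.21, at Leiden resolution 1.0, to -0.22, without the cells of the highest scrublet scores. Krt4 was at 12.2 and 48.4 CPM and Sprr1a at 208 and 318. Hormone receptors and paracrine effectors were lower for 4 of 8, among them Areg, the amphiregulin growth factor (216 and 346 CPM). The median of this list was -0.53, and it was 0.07 without the cells of the highest scrublet scores. Oxtr, the oxytocin receptor of myoepithelial cells and 1 of the 11 basal markers, was also lower, at 123 and 199 CPM. Beside these, the summed HR-positive luminal markers in basal-like cells were 1003 and 1138 CPM and the pan-luminal markers 3013 and 3801 CPM, and their part in the keratin and hormone values was not tested.

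The share of basal-like cells with both a basal keratin (Krt5, Krt14 or Krt17) and a luminal keratin (Krt8, Krt18 or Krt19) UMI did not differ beyond counting error. After thinning each cell to 2000 UMIs it was 58.0% in COL1 (134 of 231 cells; 51.4% to 64.5%) and 63.4% in MATR (161 of 254 cells; 57.1% to 69.3%), with 65.5% in STIFF and 55.5% in SOFT. In macrophage-like cells, which should lack these keratins, it was 4.23% and 2.74%, with 12.1% in STIFF and 2.36% in SOFT. That share is not the background for basal-like cells, most of which carry a basal keratin (87.0% and 92.9%). A luminal keratin, with or without a basal one, was seen in 47.9% and 39.0% of macrophage-like cells. In basal-like cells it was seen in 68.0% and 68.5%. Before thinning, the basal-like shares with both keratins were 93.7% and 97.3%. The median depths of the basal-like cells were 7223 and 10221 UMIs.

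HR-positive luminal-like cells of COL1 had more antimicrobial, acute phase and NF-kB-linked RNA and less F3, Krt78, Krt79 and Krt4 RNA. Of 7884 genes measured, 322 were higher (4.08%) and 85 lower (1.08%). Here the median gene was itself 0.07 higher (log2), and scaling by trimmed mean of M-values (TMM) would subtract 0.12 from each log2 ratio, giving 169 higher and 161 lower. The clusters in this class were filled unequally, with 302 of 540 COL1 cells and 488 of 1347 MATR cells in cluster 10 (led by Reg3b and Areg), 156 and 455 in cluster 6 (led by genes such as Krt78 and Ly6d), 71 and 386 in cluster 3 (led by genes such as Defb14 and Krt4), and 11 and 18 in cluster 12 (led by Krt15 and Il33). Ratios within cluster 10 alone, an alternative chosen after seeing the data, are given for that reason.

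Reg3b, a secreted antibacterial lectin, was at 78.4 and 10.5 CPM (7.50-fold, 6.36 to 8.86), and its STIFF and SOFT levels were 77.8 and 75.7 CPM, so MATR alone was low. Its UMIs came from 40 COL1 and 21 MATR cells, with 45.7% and 59.8% in 1 cell, and the ratio within cluster 10 was 5.09-fold. Clca3a2 was at 336 and 111 CPM (3.03-fold, 2.86 to 3.22, and 2.15-fold within cluster 10), with 200.1 in STIFF and 340.3 in SOFT. Calcb, a calcitonin gene-related peptide, was at 71.8 and 19.6 CPM (3.67-fold, 2.85-fold within the cluster) and Serpine2, an inhibitor of serine proteases such as thrombin and urokinase, at 94.4 and 33.4 CPM (2.83-fold, 3.12-fold within it).

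Cxcl13, a B cell chemoattractant, was at 54.3 and 19.1 CPM (2.84-fold), Cp, the copper-carrying ceruloplasmin, at 109 and 42.6 (2.55-fold), Mast4 at 98.9 and 44.4 (2.23-fold) and Tnip3, an inhibitor of NF-kB signalling, at 171 and 83.3 (2.05-fold). Within cluster 10 these 4 ratios were 2.29, 2.05, 2.23 and 1.61. Acute phase and antimicrobial genes were higher for 6 and lower for 1 of 14 measured, among them the iron-binding lipocalin Lcn2 (1173 and 572 CPM), haptoglobin Hp (565 and 356) and Saa1 (94.3 and 35.0). NF-kB targets were higher for 4 of 10, with a median log2 ratio of 0.44 and 0.09 in STIFF over SOFT. The feedback inhibitors Tnfaip3 (21.9 and 6.99 CPM) and Nfkbia (385 and 245 CPM) were among them.

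On the lower side, Krt78 was at 105 and 280.4 CPM (2.68-fold lower), Krt79 at 44.5 and 111 (2.51-fold lower), Krt4 at 206 and 473 (2.29-fold lower) and Il33 at 59.9 and 123 (2.05-fold lower). Within cluster 10 they were 2.76-fold, 4.25-fold, 2.89-fold and 3.79-fold lower, each a larger ratio than in the class. With each cluster of the class given the same weight in both cultures, they were 2.08-fold, 2.07-fold, 1.94-fold and 2.18-fold lower. Those ratios were smaller than in the class for Krt78, Krt79 and Krt4 and larger for Il33. F3 was 2.35-fold lower within the cluster. Defb14 was at 37.7 and 102 CPM (2.72-fold lower, 2.05-fold within the cluster), Gsn, the actin-severing gelsolin, at 20.003 and 53.6 (2.68-fold lower, 2.55-fold) and Gpx3 at 331 and 736 (2.22-fold lower, 1.55-fold). Gpx3 was at 1564 CPM in STIFF and 170.5 in SOFT, and Defb14 at 174 and 17.5. The STIFF and SOFT cells of this class were also unlike in cluster make-up. Cluster 3 held 756 of 1601 STIFF and 98 of 1871 SOFT cells, and cluster 6 held 146 and 794. The part of this make-up in the STIFF and SOFT levels was not tested.

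The receptors that name the class differed little. Esr1, the oestrogen receptor, was at 32.2 and 32.3 CPM and Pgr, the progesterone receptor, at 276 and 244 CPM, neither called. Calca, the calcitonin gene, was higher (180 and 89.7 CPM), and Ccnd1, cyclin D1, was lower (126 and 213 CPM). Squamous keratins and cornified envelope genes as a list were lower for 3 of 7, with a median of -0.10. Over the alternatives this median ranged from -1.35, within cluster 10 alone, to -0.09, and at equal weight per cell it was -0.53.

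HR-negative luminal-like cells showed the smallest share of called genes of the 5 classes, 156 higher (1.99%) and 136 lower (1.73%) of 7840. Cxcl1 was at 103 and 42.4 CPM (2.42-fold, 2.13 to 2.76), with 70.3 in STIFF and 33.6 in SOFT, and Atf3 at 518 and 256 CPM (2.03-fold, 1.92 to 2.14). C2cd4b, an inflammation-induced nuclear protein gene, was at 184 and 94.8 CPM (1.94-fold), and Atf3 and C2cd4b were at 527 and 162 CPM and 192 and 82.6 CPM in STIFF and SOFT. All 3 were thus higher in STIFF than in SOFT as well. Clca3a2 was at 263 and 118 CPM (2.22-fold) and Ntng1, a netrin-like adhesion gene, at 51.8 and 27.5 (1.89-fold).

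Saa1, Saa2 and Fcgbp, which lead the class, were higher in COL1. Saa1 was at 5143 and 2843 CPM (1.81-fold), with 4506 in STIFF and 4900 in SOFT, and Saa2 at 1839 and 869 CPM (2.12-fold), with 1691 and 1802, so MATR was low and the other 3 cultures lay close to each other. Fcgbp, a mucus-associated IgG-binding protein, was at 387 and 224 CPM (1.73-fold). Barcodes of this class without a tag call, 322 in the COL1 and STIFF pool and 268 in the MATR and SOFT pool, gave pool over pool ratios of 3.77 for Cxcl1, 2.16 for Atf3, 0.881 for Saa2 and 0.9499 for Saa1. Those barcodes cannot be placed in a culture and are given as pool values only.

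Arg1, arginase 1, was at 19.003 and 58.6 CPM (3.09-fold lower, 2.45 to 3.93), with 16.9 in STIFF and 28.1 in SOFT. Thbs1, the matricellular protein thrombospondin 1, was at 210.2 and 372 CPM (1.77-fold lower), Ly6d at 546 and 937 (1.72-fold lower), and the secreted Wfdc2 at 453 and 761 (1.68-fold lower). Ifit1 was at 46.0 and 85.6 CPM (1.86-fold lower), Cbr2, a carbonyl reductase, at 49.0 and 89.8 (1.83-fold lower), Adig at 30.3 and 61.0 (2.02-fold lower) and Pdzk1ip1 at 104 and 175 (1.68-fold lower). No named gene of this class had 25% or more of its UMIs in 1 cell in the culture where it was high. For Cbr2, 1 COL1 cell held 48.3% of the COL1 UMIs, and without the top cell of each culture its ratio was 0.307.

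Fibroblast-like cells of COL1 had more collagenase and hypoxia-linked RNA and less interferon-stimulated, cell cycle and Mgp RNA. Of 8410 genes measured, 294 were higher (3.5%) and 579 lower (6.88%), and the median gene was 0.06 lower (log2). The class held 183 COL1 and 126 MATR cells, so single cells weigh more here. Of the 8 named lower genes, 4 had 50% or more of their MATR UMIs in 1 cell. Of the 8 named higher genes, 4 had 25% or more of their COL1 UMIs in 1 cell. At a finer clustering, 86 of the COL1 and 67 of the MATR cells were in a cluster whose highest-scoring list was the pericyte list, ahead of the fibroblast list, and whose leading genes were collagens.

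Mmp13 was at 689 and 110.1 CPM (6.26-fold, 5.42 to 7.26), with 165 in STIFF and 459 in SOFT. Its UMIs came from 35 COL1 and 9 MATR cells, and 1 MATR cell held 62.2% of those of MATR. Without the top cell of each culture the ratio was 13.9-fold. Mmp10, another matrix metalloprotease, was at 110.1 and 29.0 CPM (3.80-fold), with 32.7% of the COL1 and 52.7% of the MATR UMIs in 1 cell each. Mmp9, a gelatinase, was at 31.0 and 7.38 CPM. The matrix proteases and inhibitors as a list were higher for 4 and lower for 3 of 20, with Adamts5 (7.95 and 42.7 CPM) and Serpine2 (349 and 656) among the lower.

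C1qtnf3, a secreted C1q-related adipokine, was at 216 and 45.8 CPM (4.72-fold, 3.75 to 5.99), Pgf, the placental growth factor, at 74.9 and 18.4 (4.06-fold), Cxcl2 at 80.3 and 20.03 (4.01-fold), Fabp4 at 500.1 and 171 (2.92-fold) and Hmox1, haem oxygenase 1, at 140.2 and 49.0 (2.86-fold). A single COL1 cell held 45.3% of the Cxcl2 UMIs and another measure of this kind was 30.4% for Hmox1. Without the top cell of each culture these 2 ratios were 3.18-fold and 2.26-fold. Pgf was at 21.7 CPM in STIFF and 88.2 in SOFT and Hmox1 at 39.3 and 109, the reverse of COL1 over MATR. C1qa, a complement gene of macrophages, was at 77.0 and 25.3 CPM, with 47.8% and 72.9% of its UMIs in 1 cell. The summed macrophage markers in this class were 552 and 226 CPM, and their part in these ratios was not tested.

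Genes of hypoxia and glycolysis were higher for 9 and lower for 0 of 17, with a median log2 ratio of 0.58, against -0.06 over all genes and -0.42 in STIFF over SOFT. The glucose carrier Slc2a1 was at 170 and 82.7 CPM, with 84.6 in STIFF and 141 in SOFT. Vegfa, the vascular growth factor, was at 207 and 120 CPM, with 117 and 208.8, and Ankrd37 at 109 and 48.5, with 39.1 and 70.5. COL1 and SOFT were thus high and MATR and STIFF low. The list had 0 called members in HR-positive and HR-negative cells, and 1 higher, Adm, in basal-like cells.

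Interferon-stimulated genes were lower for 13 of 13, with a median of -1.20, and -0.33 in STIFF over SOFT. Ifit3 was at 6.70 and 45.8 CPM (STIFF 10.95, SOFT 20.3), Ifit1 at 33.1 and 113 (27.7 and 44.4) and Isg15, a ubiquitin-like modifier, at 83.7 and 258 (195 and 259). Cxcl10, an interferon-induced chemokine, was at 13.4 and 120.2 CPM (8.97-fold lower) with 86.0% of the MATR UMIs in 1 cell. Without the cell of each culture with the most UMIs of the list, an alternative chosen after seeing the data, the median was -0.94. The list was lower for 6 of 12 in macrophage-like cells (median -0.49) and 3 of 11 in HR-negative cells, where 1 was higher (median -0.26).

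S phase genes were lower for 5 of 8 (median -0.88) and G2/M genes for 7 of 13 (-0.57), whereas in STIFF over SOFT the medians were 0.70 and 1.06. Mki67, the proliferation marker Ki-67, was at 26.8 and 53.2 CPM (STIFF 62.2, SOFT 15.7), and Mcm6, a replication helicase subunit, at 7.11 and 26.4. The most marked cell of each culture held 26.8% and 29.6% of the G2/M UMIs, and these genes are read in few cells.

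Mgp, matrix Gla protein, an inhibitor of calcification, was at 987 and 3515 CPM (3.56-fold lower, 3.40 to 3.73), with 2164 in STIFF and 1454 in SOFT. Itih5, which stabilises hyaluronan, was at 22.6 and 123 CPM (5.46-fold lower), Slco2a1, a prostaglandin carrier, at 29.3 and 141 (4.80-fold lower) and Iigp1, an interferon-induced GTPase, at 12.6 and 63.8 (5.08-fold lower). Ltf (3.77 and 84.8 CPM) and Krt17 (9.21 and 50.1 CPM) had 84.5% and 71.6% of their MATR UMIs in 1 cell. Krt15 had 0 UMIs in COL1 and 146 in MATR, of which 1 cell held 92.5%. The MATR values of these 3 epithelial genes thus come mostly from 1 cell each.

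Collagen genes of the fibroblast-like cells themselves did not move as a group. Of 17 fibrillar collagen and processing genes, 2 were higher and 2 lower, with a median log2 ratio of -0.05. Col1a1 was at 5075 and 6873 CPM (STIFF 4688, SOFT 5209), Col1a2 at 4981 and 6916 and Col3a1 at 3602 and 3901, none called. The collagen VI chains Col6a1 (891 and 1486 CPM) and Col6a2 (538 and 993) were lower, and the lysyl and prolyl hydroxylases Plod2 (229 and 129) and P4ha2 (401 and 266) were higher. Tnc was higher, at 689 and 334 CPM (STIFF 734, SOFT 757), the only called gene of 15 interstitial glycoproteins. In CPM within fibroblast-like cells, collagen I RNA was therefore not called higher in COL1, while it was over all cells, and the fibroblast-like shares were 10.3% and 4.26%.

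The contractile apparatus was higher for 4 and lower for 0 of 14 in fibroblast-like cells. Tagln (transgelin) was at 1670 and 1017 CPM, Cnn1 (calponin) at 25.1 and 8.43 and Myl9 at 214 and 122, whereas Acta2, smooth muscle actin, at 1469 and 1110 CPM, was not called. Ccn2, a connective tissue growth factor, was at 563 and 259 CPM (higher), with 365 in STIFF and 655 in SOFT. Pericyte markers, which belong to another contractile cell type, were lower for 5 of 9, among them Notch3 (20.9 and 42.2 CPM) and Pdgfrb (219 and 395), and summed to 650 and 975 CPM.

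Macrophage-like cells of COL1 had more chemokine, cytokine and NF-kB-linked RNA. Of 7831 genes measured, 380 were higher (4.85%) and 386 lower (4.93%), over 145 COL1 and 153 MATR cells. Chemokines and cytokines were higher for 12 and lower for 2 of 20, with a median log2 ratio of 0.71, against -0.03 over all genes and -0.07 in STIFF over SOFT. None of 11 macrophage markers was called.

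Cxcl1 was at 720.2 and 168 CPM (4.29-fold, 3.86 to 4.79), with 569 in STIFF and 392 in SOFT. Its UMIs came from 92 of 145 COL1 and 68 of 153 MATR cells, and the top COL1 cell held 5.06%. Cxcl3 was at 117 and 4.79 CPM (24.4-fold, 13.8 to 47.9), with UMIs in 32 COL1 and 6 MATR cells, and was at 228 CPM in STIFF and 221 in SOFT, so MATR alone was low. Cxcl2, which leads the class, was at 3800 and 1200 CPM, Ccl2 at 2779 and 1297, and the cytokine genes Tnf at 106 and 30.7, Il1a at 214 and 74.3 and Il1b at 706 and 451. STIFF and SOFT had 169.5 and 116 CPM of Tnf, both above MATR.

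NF-kB targets were higher for 6 and lower for 0 of 12 (median 0.47, and 0.20 in STIFF over SOFT), with Nfkbia at 621 and 204 CPM and Nfkbiz, an atypical inhibitor of kappa B, at 238 and 71.5. Of 13 measured macrophage state genes 4 were higher and 2 lower, and the 4 did not belong to 1 state. Arg1 (1393 and 540 CPM), read for alternative activation, and Nos2 (12.6 and 3.59), read for classical activation, were both higher. Spp1 (9330 and 5831) and Pf4 (1449 and 561) were higher, and Gpnmb (206 and 335) and Fabp5 (1216 and 2041), of lipid-laden macrophages, were lower. STIFF and SOFT had 656 and 1396 CPM of Arg1 and 356 and 1503 of Pf4.

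Ccl8, a monocyte chemokine, was at 53.8 and 246 CPM (4.58-fold lower), with UMIs in 19 COL1 and 46 MATR cells, and 61.4 in STIFF and 22.6 in SOFT. Marco, a scavenger receptor, was at 41.2 and 229 CPM (5.55-fold lower), with 55.1% of the MATR UMIs in 1 cell and a ratio of 0.313 without the top cell of each culture. Lpl, lipoprotein lipase, was at 28.6 and 66.3 CPM (2.32-fold lower). Timp1, an inhibitor of matrix metalloproteases, was at 71.5 and 15.2 CPM (4.71-fold), with 41.8% of the COL1 UMIs in 1 cell and 3.48-fold without the top cell of each culture. The interferon-induced Ifitm1 was at 131 and 31.5 CPM (4.16-fold).

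Genes of other cell types were among the called genes of this class in both directions. Of the higher named genes, Rarres2 (159 and 1.60 CPM), Mgp (112 and 7.59), Col3a1 (106 and 18.4) and Crabp1 (53.8 and 9.18) are made by fibroblasts, and 1 COL1 cell held 55.7% of the Rarres2, 73.4% of the Mgp and 81.5% of the Crabp1 UMIs. The summed fibroblast markers in the class were 486.5 and 243 CPM, with 404 in STIFF and 128 in SOFT. Of the lower ones, Ly6d (417 and 899.7 CPM), S100a14 (43.4 and 125), Krt4 (27.8 and 78.3), Cxcl15 (18.6 and 50.3) and Cited1 (10.8 and 51.1) are epithelial, and the summed pan-luminal markers were 2951 and 4113 CPM, with 6832 and 1988. Without the cells of the highest scrublet scores the log2 ratios of Ly6d (0.59), Cxcl15 (0.63) and Cited1 (0.44) turned positive. The marker sums ran the same way as these ratios in COL1 and MATR, and their part in them was not tested.

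The calls were set against those of the other cultures of the same channels. Of all genes, 3.19% were called higher in STIFF over SOFT over all cells, 4.27% in HR-positive, 6.43% in fibroblast-like and 18.7% in macrophage-like cells. The shares called lower there were 1.85% over all cells, 3.72% in fibroblast-like and 4.36% in macrophage-like cells. Of the 484 genes higher in COL1 over all cells, 58 (11.98%) were also called higher in STIFF over SOFT and 51 (10.5%) were called lower there, and of the 117 lower ones 9 (7.69%) were called the same way and 26 (22.2%) the opposite way. In HR-positive cells 46 of 322 (14.3%) and in macrophage-like cells 102 of 380 (26.8%) higher genes were called higher in STIFF over SOFT, and of the 85 lower genes in HR-positive cells 35 (41.2%) were called the opposite way. In fibroblast-like cells 22 of 294 higher genes (7.48%) were called the same way and 74 (25.2%) the opposite way. Of the 579 lower genes in fibroblast-like cells, 19 (3.28%) were called the same way and 115 (19.9%) the opposite way. Of the 386 lower genes in macrophage-like cells, 17 (4.40%) were called the same way and 115 (29.8%) the opposite way. STIFF and SOFT differ in matrix too, and their HR-positive cells in cluster make-up, so these shares do not separate the channel from the culture.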

How the data were processed

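Single-cell RNA was measured in 2 pools of organoid cells. The deposited matrices hold raw UMI counts per gene and barcode, per the file headers, and Cell Ranger 5.0.0, the mm10 build and Seurat 4.2.0 are named in the submitters' processing notes. How the deposited barcodes were picked is not given in the sources used here. Each pool was deposited as 2 entries with identical gene counts and was read once. The members, gene lists and comparisons were chosen with earlier results of these data known.

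All kept barcodes except those dropped for carrying both tags were clustered together (scanpy 1.11.5 in Python 3.11.15, igraph 0.11.9, scikit-learn 1.9.0; 2000 variable genes, 30 components, 15 neighbours, Leiden resolution 0.5). A cluster stayed unnamed where the mean log2 ratio of another lineage's markers was 0.5 or more of that of its best list, a threshold set after seeing the data. Scanpy's scrublet marked 0 doublets in either pool and so did not work, and only the tag rule removed doublets (420 and 391 barcodes).

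Counts were summed per culture and class and divided by their total (CPM). Ratios have exact conditional binomial 95% intervals and shares Clopper-Pearson 95% intervals (numpy 2.4.6, scipy 1.17.1, pandas 2.3.3), which cover counting error only. Log2 ratios used a pseudocount of 5 CPM. List members count as measured under the filter of the call rule. The interval and the call rule were run on simulated sums with known folds and counting error only. Those sums held no differences between cells, so the simulation does not bear on genes carried by single cells. HTODemux (Seurat 5.3.0) and TMM (edgeR 4.0.16) ran in R 4.3.3, and figures were drawn with matplotlib 3.10.9.

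Named genes are the 10 highest and 10 lowest log2 ratios over all cells among called genes of at least 50 CPM in 1 culture. In each class they are the 8 highest and 8 lowest that reach 3 times the lowest level of the other classes, and across classes those changed the same way in 4 or 5. Mitochondrial, ribosomal, haemoglobin and sex-linked genes and unnamed models were left out by the rule. Collagen and laminin receptors, AP-1 subunits, keratins and the extreme members of lists were added. Gm17056, Gm10076 and other list members named were chosen after their values were seen. A few results are not reported here.

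Alternatives were a tag ratio of 4, HTODemux tags, stricter cell filters, leaving out the 5% of cells with the highest scrublet scores, Leiden resolution 1.0, equal weight per cell, TMM, a 50 CPM filter, a 2-fold threshold, equal lineage shares and a pseudocount of 1 CPM, and some added after seeing the data.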

Additional observations from a re-analysis of the deposited data

Results flagged for a closer look

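Of the named genes, 4 were called in opposite directions in different classes at 50 CPM or more in 1 culture of each, and the difference between the classes was not tested. Egr3 was higher in COL1 in basal-like cells (log2 ratio 1.04; 59.8 and 26.5 CPM in COL1 and MATR) and lower in fibroblast-like cells (-1.03; 34.7 and 76.4 CPM), a gap of 2.08. Serpine2 was higher in HR-positive cells (1.37; 94.4 and 33.4 CPM) and lower in fibroblast-like cells (-0.90; 349 and 656 CPM), a gap of 2.27. Arg1 was higher in macrophage-like cells (1.36; 1393 and 540 CPM) and lower in HR-negative cells (-1.41; 19.003 and 58.6 CPM), a gap of 2.77. Mgp was higher in macrophage-like cells (3.22; 112 and 7.59 CPM) and lower in fibroblast-like cells (-1.83; 987 and 3515 CPM), a gap of 5.05. For Mgp, 1 COL1 macrophage-like cell held 73.4% of the UMIs, and the ratio without the top cell of each culture was 4.66-fold.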

How the results depend on the processing

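Of 932 recomputed log2 ratios of named genes, 4 turned sign, all without the cells of the highest scrublet scores: Ltf in basal-like (0.36) and Cited1 (0.44), Cxcl15 (0.63) and Ly6d (0.59) in macrophage-like cells. Of 190 list medians, the 17 past 1.5-fold kept their sign under every alternative run, and 70 of the other 173 took the other sign under 1 or more. Without the highest scrublet scores, hormone receptors and luminal keratins in basal-like cells turned from -0.53 and -0.28 to 0.07 and 0.32. The interferon-stimulated list in fibroblast-like cells ranged from -1.52 to -0.94. No paired analysis was possible because each condition was 1 culture, and no replicate could be left out.

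Of 190 recomputed gene counts and shares, 56 moved, gene counts by over 1.5 times and shares past their interval. The gene counts are given as higher, then lower, in COL1. At 50 CPM they were 146 and 40 over all cells, 63 and 31 in basal-like, 79 and 35 in HR-positive, 44 and 18 in HR-negative, 106 and 153 in fibroblast-like and 142 and 76 in macrophage-like cells. At 2-fold they were 223 and 21, 67 and 46, 64 and 19, 34 and 11, 133 and 219, and 155 and 141 in the same order. At equal weight per cell they were 461 and 412 in basal-like, 313 and 245 in HR-negative and 466 and 880 in fibroblast-like cells. TMM gave 169 and 161 in HR-positive cells, equal lineage shares 124 and 69 over all cells, HTODemux 220 lower in HR-negative cells and cluster 10 alone 601 higher in HR-positive cells.

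With a tag ratio of 4, HTODemux and tag 1 at 4 times background, the last added after seeing the data, the HR-positive share was 35.4%, 33.1% and 34.7% in COL1 (32.9% with the stricter cell filter) and 50.3%, 53.6% and 52.7% in MATR (47.5% without the highest scrublet scores). The HR-negative share was 13.9%, 10.4% and 12.2% in COL1 and 17.7%, 12.4% and 15.5% in MATR. HTODemux gave 6.77% basal-like and 6.47% macrophage-like cells in MATR, and tag 1 at 4 times background gave 9.58% and 6.22% macrophage-like cells in COL1 and MATR. The HR-negative share was thus smaller in both cultures under each stricter tag rule, and the difference between COL1 and MATR narrowed, most with HTODemux. Without thinning, keratin co-detection was 93.7% and 97.3%.

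The limits are 1 culture per condition, channel and matrix that cannot be told apart, a class make-up that moves with the tag rule, shallower COL1 cells, and classes of 126 to 183 cells in which 1 cell can hold most UMIs of a gene.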

Other observations

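Heat shock genes, a further group of handling- and stress-linked transcripts, were all measured. Of 9, 0 was called over all cells, in basal-like, HR-positive and fibroblast-like cells, and 1 was higher in HR-negative and 1 in macrophage-like cells. Milk protein genes were measured for 5 members in HR-negative cells, of which 1 was higher and 2 were lower, with a median log2 ratio of 0.02. Cholesterol synthesis and uptake genes were called for 2 higher of 11 in fibroblast-like cells and for 0 of 9 in macrophage-like cells. Cell junction genes were called for 0 of 9 in basal-like and 0 of 10 in HR-positive cells. Of all measured genes, 1.99% were called higher and 1.73% lower in HR-negative cells. The shares called higher were 3.5% in fibroblast-like and 4.85% in macrophage-like cells. These small counts were not tested against those shares.

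The third antibody row of the deposited matrices, used by no culture, had a median of 0 counts per kept barcode in both pools.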
